A study of Mus musculus with 6 samples.

Results

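The expression profile described here is that of RAG2+ B lineage cells from mouse bone marrow, taken from the 3 marrow arrays among the 6 arrays of the series and described without the other tissue. The cells carried a green fluorescent reporter of Rag2 and were sorted on it from RAG2-GFP/129Sve mice of post-natal day 17 to 25, housed without treatment in a specific-pathogen-free facility. Each experiment used 8 to 12 mice, so each array holds RNA of pooled animals, and the replicates were independent experiments. The protocols name the reporter as the only sorting criterion, and the fluorescent protein can outlast the transcript. For all samples of the series, between 4.5 and 47 ng of RNA was amplified, and which marrow pool had how much is not stated in those protocols.

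B cells form in the bone marrow by assembling antibody genes from segments. Pro-B cells cut and join the heavy chain locus with the RAG1 and RAG2 recombinase. Pre-B cells then display a heavy chain with the surrogate light chain, divide, and switch the recombinase on again for a light chain gene. Immature B cells leave with a complete receptor and later gain the surface proteins of mature B cells.

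Values are log2 RMA levels, a scale on which 1 unit is a doubling of probe brightness, and 19938 genes were covered. Probe sets differ in how brightly they bind, so a rank orders array brightness and only roughly orders transcript amount. A gene was counted as high where all 3 pools reached 8 or more. It was counted as above background where every pool exceeded the 95th percentile of the 1027 olfactory receptor genes on its own array, at 5.33, 5.31 and 5.33 in pools 1, 2 and 3. Olfactory receptors are made in sensory neurons, and their median was 3.46, 3.43 and 3.51. By these rules 1257 genes, 6.3% of all, were high, and 9543, 47.9%, were above background. The median gene averaged 5.45, and the upper 5% of genes started at 8.60. With 3 samples of 1 kind there is no second group, so means, SDs and ranges are given as descriptions and no test was made.

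Of the 5 genes that mark the cells, each was high or near the top of the array. Vpreb1, which encodes part of the surrogate light chain, read 11.83, 11.79 and 11.85 in pools 1, 2 and 3 and ranked 12 of 19938. Dntt, whose enzyme adds untemplated nucleotides at heavy chain joints, read 11.19, 11.34 and 11.12 and ranked 59. The pools barely differed for these genes, with an SD of 0.03 for Vpreb1 and 0.12 for Dntt. Rag1 read 10.92, 10.99 and 11.15 and ranked 77. Ebf1, a transcription factor that commits progenitors to the B lineage, read 10.73, 10.98 and 10.51 and ranked 100. Igll1, the other part of the surrogate light chain, read 11.07, 11.43 and 9.59 and ranked 108, so pool 3 lay well below the other pools. The label of the cells thus matches their markers.

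The stretches upstream of Vpreb1, Igll1, Rag1 and Dntt, and of the pre-B receptor genes Vpreb2 and Cd79a, are shown to compare where they hold the E-box CAGGTG. That is the sequence type bound by the E proteins of early B cells. Cd79a was not high in pool 3, and Dntt is shown as a bright gene whose run holds no such E-box. Each run gives the 250 bases before the annotated start, 5′ to 3′ on the gene's strand, from RefSeq on GRCm38.p6, with the E-box or its reverse complement CACCTG in capitals. In the order printed they lie at chr16:16869256-16869505 (minus strand), chr16:17980315-17980564 (plus), chr16:16863986-16864235 (minus), chr7:24897247-24897496 (plus), chr2:101649533-101649782 (minus) and, for Dntt, chr19:41029025-41029274 (plus).
Vpreb1: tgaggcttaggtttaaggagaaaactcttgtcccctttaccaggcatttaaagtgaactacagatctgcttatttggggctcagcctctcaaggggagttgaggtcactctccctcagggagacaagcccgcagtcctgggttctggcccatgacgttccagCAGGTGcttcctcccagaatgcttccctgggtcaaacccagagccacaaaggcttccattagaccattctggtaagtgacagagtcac
Vpreb2: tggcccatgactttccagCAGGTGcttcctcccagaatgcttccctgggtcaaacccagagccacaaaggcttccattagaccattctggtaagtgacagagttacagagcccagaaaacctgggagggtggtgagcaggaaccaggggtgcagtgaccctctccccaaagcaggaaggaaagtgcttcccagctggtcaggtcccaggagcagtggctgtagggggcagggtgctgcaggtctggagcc
Igll1: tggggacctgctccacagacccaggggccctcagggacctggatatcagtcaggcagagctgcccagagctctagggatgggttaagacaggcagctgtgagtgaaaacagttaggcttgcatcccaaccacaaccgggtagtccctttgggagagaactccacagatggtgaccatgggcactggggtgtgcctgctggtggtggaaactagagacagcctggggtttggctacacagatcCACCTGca
Cd79a: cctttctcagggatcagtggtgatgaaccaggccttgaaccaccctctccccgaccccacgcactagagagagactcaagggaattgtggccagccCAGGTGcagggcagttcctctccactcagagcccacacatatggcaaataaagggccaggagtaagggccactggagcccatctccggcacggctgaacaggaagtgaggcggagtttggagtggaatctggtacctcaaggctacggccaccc
Rag1: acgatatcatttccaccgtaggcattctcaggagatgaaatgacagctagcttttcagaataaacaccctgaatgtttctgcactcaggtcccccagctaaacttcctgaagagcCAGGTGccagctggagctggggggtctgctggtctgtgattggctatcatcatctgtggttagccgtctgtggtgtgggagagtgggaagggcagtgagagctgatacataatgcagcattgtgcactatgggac
Dntt: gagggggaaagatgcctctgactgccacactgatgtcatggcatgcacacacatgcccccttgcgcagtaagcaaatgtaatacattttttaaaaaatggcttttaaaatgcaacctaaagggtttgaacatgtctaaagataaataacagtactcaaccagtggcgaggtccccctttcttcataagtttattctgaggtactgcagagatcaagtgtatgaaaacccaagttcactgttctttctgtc

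Each of these runs held 1 such E-box, except that of Dntt, which held none. Counted back from the start, it began at -88 for Vpreb1, -232 for Vpreb2, -8 for Igll1, -154 for Cd79a and -135 for Rag1. The Vpreb1 and Vpreb2 runs shared an unbroken stretch of 91 identical bases that includes the E-box. It began 94 bases before the start of Vpreb1 and 238 before that of Vpreb2. The same search found the E-box upstream of 7 of 16 early B cell genes with a listed promoter, the other holders being Blnk and Erg. A gene counted if any of its promoters held it. Of the genes without it, Dntt alone is printed above. The 16 genes were picked for the search after their levels were known. Counted by promoter rather than by gene, 17.2% of all 32851 listed promoters held it. The share was 16.9% for the 19177 promoters of measured genes and 11.8% for the 1339 promoters of 1034 high genes. The pair of half-sites CCCNNGGG, the pattern read by EBF1 (its own reverse complement), was upstream of Igll1 and Erg, against 11.8% of all promoters. Of the promoters of high genes 15.0% held that pair, and of those of measured genes 13.9%. Promoters of high genes held CCGGAAG or its reverse complement, an ETS type site, in 15.5%. That was against 9.41% for measured genes and 6.91% of all promoters. The NRF1 site was found in 11.5%, against 5.63% for measured genes and 3.74% of all. TATAAA or its reverse complement was found in 7.54%, against 10.5% for measured genes and 12.4% of all. Both strands were searched, these motifs may overlap one another, and a match describes letters only.

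**Figure D1:**
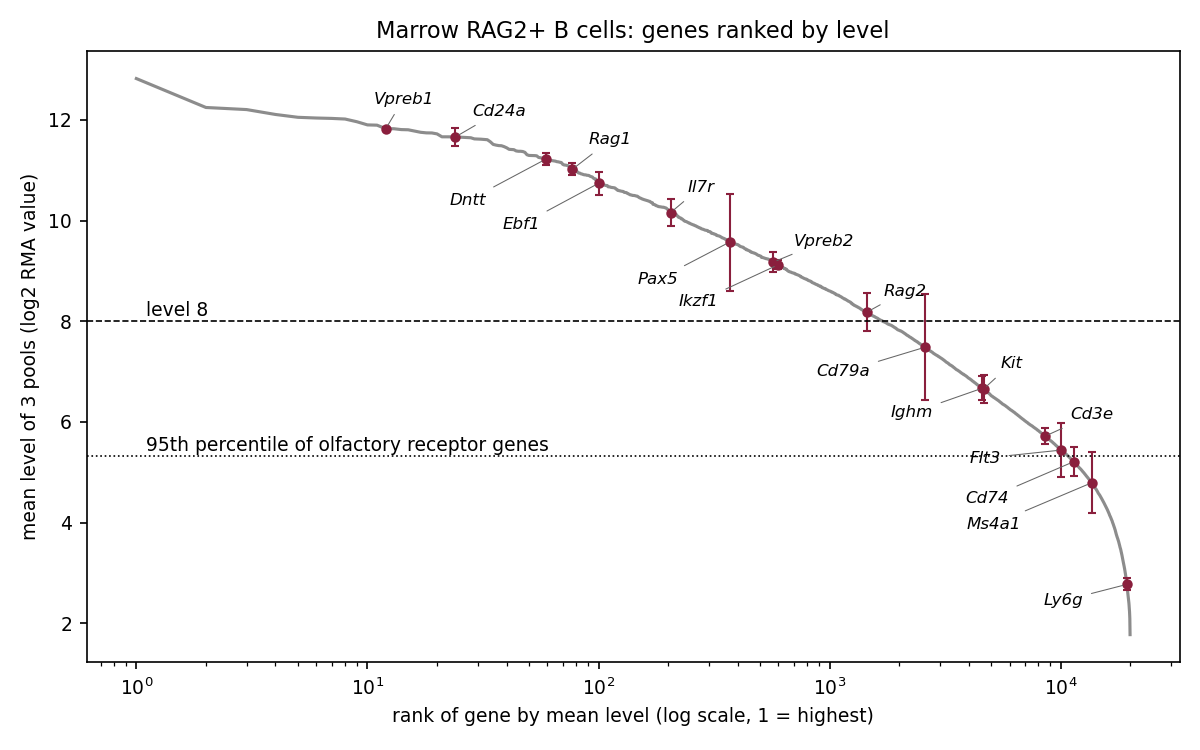
Mean log2 RMA level of the 3 marrow pools (vertical axis) against the rank of each of 19938 genes (horizontal axis, log scale). Points with SD bars (n = 3) mark named genes, the dashed line is the level 8 and the dotted line the mean over the arrays of the 95th percentile of olfactory receptor genes. Vpreb1, Cd24a, Dntt, Rag1 and Ebf1 lie within the first 100 ranks, and Ms4a1 and Ly6g below the dotted line.

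Of the 30 genes ranked highest, 9 were cytosolic ribosomal proteins, 1 a translation factor and 2 splicing or hnRNP genes. The 9 ribosomal proteins were Rps6, Rps20, Rps12, Rpl21, Rps9, Rps4x, Rps28, Rpl4 and Rpl23, and their means ran from 11.62 to 12.04. Eef1a1, the elongation factor that brings tRNAs to the ribosome, averaged 12.25 ± 0.07 (SD, n = 3), and the growth-related protein Tpt1 12.21 ± 0.06. The poly(A)-binding protein Pabpc1 averaged 11.82 ± 0.10, and the splicing proteins Srsf3 and Hnrnph1 12.02 ± 0.05 and 11.72 ± 0.06. Actin and its binding partners stood high too, with Tmsb10 at 12.11 ± 0.35, Actb at 11.74 ± 0.18 and Gmfg at 11.74 ± 0.26. Calm2, a calmodulin gene, averaged 12.05 ± 0.11, and the nuclear RNA Malat1 11.90 ± 0.03. Ube2d3, a ubiquitin-conjugating enzyme, averaged 11.78 ± 0.37, the chaperone Hspa8 11.66 ± 0.34, the mitochondrial gene COX2 11.66 ± 0.13, Anp32a 11.66 ± 0.13 and Taf1d 11.65 ± 0.21.

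Vpreb1 and Cd24a were the lineage genes within these 30. Cd24a, which encodes the heat-stable antigen used to stage marrow B cells, read 11.62, 11.51 and 11.85 and ranked 24. The small nuclear RNA gene Rn7sk and Rpph1, the RNA part of RNase P, were in the group with the widest spread. Rn7sk read 12.13, 12.39 and 10.90 and Rpph1 11.90, 12.37 and 10.68, pool 3 being lowest for both.

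Some names in this group are uncertain. The highest value, 12.82 ± 0.13, carried the name Baiap2l1, but that symbol had 3 probe sets, averaging 12.82, 11.06 and 5.30. The dimmest alone listed a RefSeq transcript of the gene. Gmfg had a second probe set at 6.22, and AY036118, at 11.62 ± 0.24, is an unnamed transcript. Of the 1257 high genes, 265 had several probe sets, and 148 of these had a probe set below 8 in at least 1 pool.

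Larger families showed which processes were bright in these cells. Of 71 cytosolic ribosomal proteins 47 were high, with a median of 10.40. Splicing and hnRNP genes followed with 30 of 46 and a median of 8.995. Of 61 translation factors 24 were high, of 50 proteasome genes 17, and of 93 nuclear genes of the respiratory chain and ATP synthase 29. Against the 6.3% over all genes these shares were 66.2%, 65.2%, 39.3%, 34% and 31.2%. Mitochondrial ribosomal proteins (4 of 77), solute carriers (8 of 364) and Zfp zinc finger genes (12 of 347) were high at 5.19%, 2.2% and 3.46%. None of 52 keratins, 167 vomeronasal receptors or 1027 olfactory receptors was high. The polycomb methyltransferase Ezh2 (rank 58), the tubulin regulator Stmn1 (rank 40) and the B cell adaptor Klhl6 (rank 36), picked after their values were seen, averaged 11.23 ± 0.11, 11.45 ± 0.23 and 11.50 ± 0.32.

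The recombination genes are given by step. The genes for cutting were bright, with Rag1 as given above and Rag2 at 7.76, 8.49 and 8.28, where pool 1 fell short of 8. The cofactor Hmgb2, which bends the DNA for the recombinase, read 10.98, 11.07 and 11.42 and ranked 68. Of the genes that join the ends, Xrcc6, which encodes the Ku70 end-binding protein, averaged 9.58 ± 0.10. Lig4, the ligase of this pathway, read 8.91, 9.23 and 9.76 and its partner Xrcc4 8.22, 7.75 and 8.25. The damage kinases Prkdc and Atm were dimmer at 7.22 ± 0.33 and 6.76 ± 0.52. Xrcc5, the Ku80 gene, read 7.18, 5.87 and 7.31, with pool 2 more than 1 below both others. Hmgb1 averaged 7.99 ± 0.39. The factors Nhej1 (5.47), Polm (5.16) and Poll (4.90) were not above background in every pool. In all, 5 of 14 measured members were high (35.7%, against 6.3% of all genes) and 11 above background (78.6%, against 47.9%). Their median was 8.03 against 5.45 over all genes.

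The list of surrogate light chain and pre-B receptor genes held some of the brightest lineage genes. Of its 7 genes 5 were high (71.4%, against 6.3% of all genes), with a median of 9.62. Vpreb3 read 10.24, 10.66 and 9.46, Vpreb2 9.11, 9.39 and 9.01, and the signalling chain Cd79b 9.75, 9.69 and 9.43. The other signalling chain, Cd79a, read 8.17, 8.00 and 6.27. Vpreb1 and Vpreb2 are closely similar genes, and how far their probes tell them apart was not tested. Ighm, the IgM heavy chain that pairs with the surrogate light chain, averaged 6.67 ± 0.23 on its brightest of 3 probe sets. The others were at 5.72 and 2.66. Igha, the IgA constant region, averaged 8.66 ± 0.24 on 1 probe set and 8.06 on another. Neither the Ighm nor the Igha sets listed a RefSeq transcript of their gene, so immunoglobulin levels are uncertain here.

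Of 14 downstream signalling genes 6 were high (42.9%, against 6.3% of all genes), with a median of 7.98. The adaptors Blnk and Pik3ap1 averaged 9.95 ± 0.45 and 9.70 ± 0.20, the kinase Prkcb 9.52 ± 0.14 and the phosphatase Inpp5d 9.42 ± 0.40. The kinase Syk read 9.30, 8.70 and 9.40, and Cd72, an inhibitory co-receptor, 9.71, 8.68 and 9.59. Blk, a kinase of the Src family, read 6.67, 5.95 and 7.31. For all 3 of these genes pool 2 was lowest. The co-receptor partner Cd81 averaged 7.81 ± 0.61, with pool 2 highest, and Pik3cd, a lipid kinase of this pathway, 7.87, 7.67 and 6.81. Bank1, an adaptor of mature B cells, was lowest of the group at 4.35 ± 0.29.

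**Figure D2:**
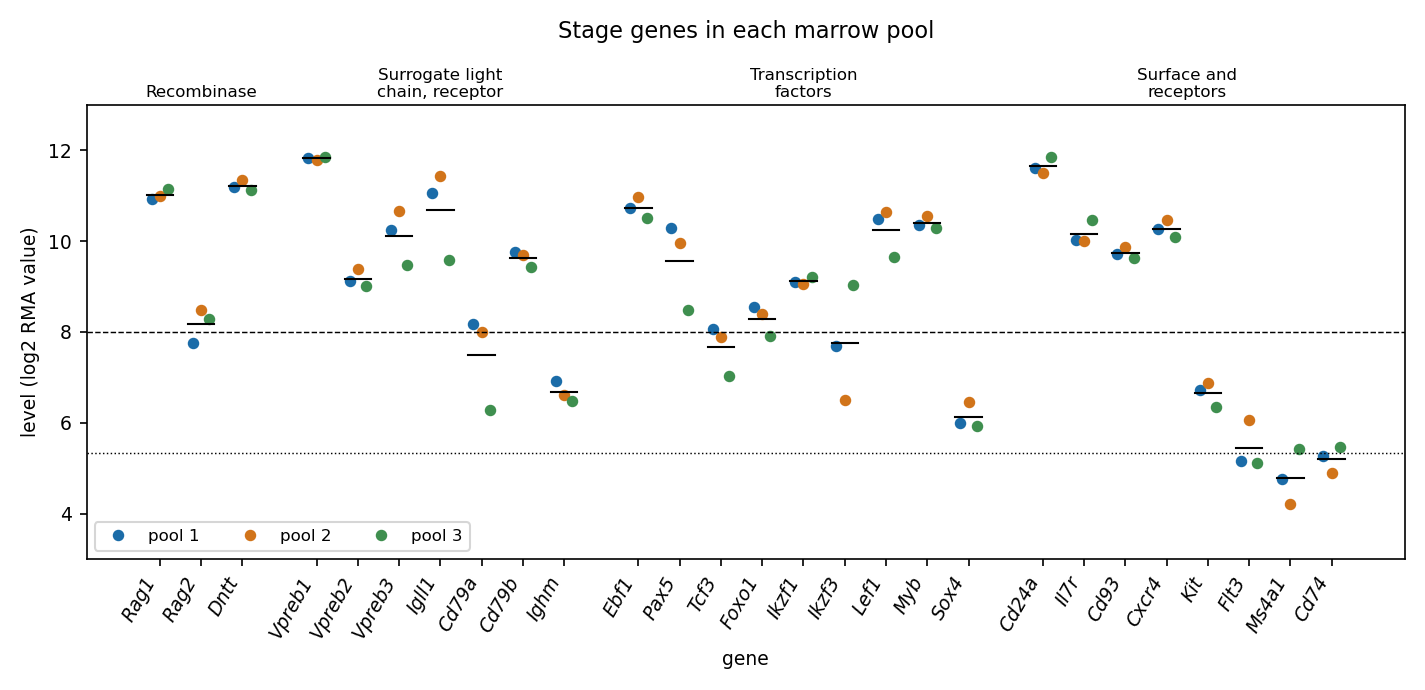
Log2 RMA level (vertical axis) of stage genes (horizontal axis) in each marrow pool, with a bar at the mean of the 3 pools. The dashed line is the level 8 and the dotted line the mean 95th percentile of olfactory receptor genes. Pool 3 sits apart for Igll1, Pax5, Cd79a and Tcf3, and the pools lie close for Vpreb1, Rag1, Dntt and Ikzf1.

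Among 22 transcription factors of the B lineage, 11 were high (50%, against 6.3% of all genes) and 21 above background (95.5%, against 47.9%). Their median was 8.33. Ebf1 led, followed by Myb, a factor of progenitors, at 10.40 ± 0.14, Lef1 of the Wnt pathway at 10.26 ± 0.53 and Erg at 10.12 ± 0.21. Pax5, which holds cells in the B lineage, read 10.29, 9.95 and 8.47. Ikzf1, the gene for Ikaros, read 9.10, 9.05 and 9.22, and Foxo1, an activator of the recombinase genes, 8.55, 8.39 and 7.90. Tcf3, the E2A gene, read 8.06, 7.88 and 7.03. The relative of Ikaros named Aiolos, encoded by Ikzf3 and known to rise as pre-B cells stop dividing, read 7.69, 6.51 and 9.04, a range of 2.53. Bcl11a read 9.47, 9.02 and 8.06. Sox4 averaged 6.12 ± 0.29, and Spi1, the myeloid and lymphoid factor PU.1, was lowest at 5.25 ± 0.14.

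Surface genes of early stages ranged from the brightest on the array to background. Il7r encodes the receptor for interleukin 7, on which early B cells grow, and averaged 10.16 ± 0.26. Cd93, the AA4.1 antigen of immature B cells, read 9.72, 9.87 and 9.64, and Ptprc, the CD45 gene, 9.42, 9.32 and 10.15. Bst1, the BP-3 antigen, averaged 8.52 ± 0.22. The progenitor genes Kit, Flt3 and Cd34 were dimmer than these. Kit averaged 6.65 ± 0.27, above background in every pool and above 76.8% of genes. Flt3 read 5.16, 6.05 and 5.11, and Cd34 averaged 4.80 ± 0.11. Flt3 exceeded the olfactory reference in pool 2 alone. Il2ra, the CD25 antigen of pre-B cells, read 7.22, 5.71 and 7.73. Of 13 measured genes of this list 5 were high (38.5%, against 6.3% of all genes).

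In the list of immature and mature B cells 0 of 16 genes were high, against 6.3% of all genes. Above background were 9 of them, or 56.2% against 47.9%, and their median of 5.90 compares with 5.45 over all genes. Cd37, a tetraspanin, read 9.35, 9.27 and 7.33, and H2-Ob, a modulator of class II loading, 8.38, 8.43 and 6.20. The BAFF receptor gene Tnfrsf13c averaged 7.27 ± 0.08 and the exit receptor S1pr1 6.70 ± 0.22. Ms4a1, the CD20 gene, read 4.75, 4.21 and 5.41. Cd55 read 5.87, 5.99 and 7.18, and the follicle receptor Cxcr5 was lowest at 3.75 ± 0.40. MHC class II genes were at a median of 5.21, with H2-Ab1 the brightest at 7.10 ± 0.38. Of these genes 0 of 7 were high, a list too short to be told from the 6.3% of all genes. Cd74, the invariant chain, averaged 5.21 ± 0.29, H2-Eb1 5.66 ± 0.16 and H2-DMa was lowest at 4.68 ± 0.30. H2-Oa read 5.45, 6.12 and 4.40.

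Of 8 plasma cell genes 1 was high (12.5%, against 6.3% of all genes), Sec11c of the signal peptidase at 9.35 ± 0.31. Mzb1, a chaperone of antibody assembly, read 8.05, 8.45 and 6.40, and Xbp1, a factor of secretory cells, 6.86, 6.70 and 5.85. Creld2 of the endoplasmic reticulum averaged 7.03 ± 0.02. Jchain, which links antibody units, was lowest at 3.01 ± 0.23. Among fetal-type and B-1 genes 0 of 8 were high, a list too short to be told from the 6.3% of all genes. Igf2bp3 averaged 6.58 ± 0.07, Arid3a 6.39 ± 0.03, Zbtb32 6.12 ± 0.15 and Hmga2 6.06 ± 0.15. Bhlhe41, a factor of B-1 cells, was lowest at 3.47. Lin28b, the regulator of fetal lymphopoiesis, was not above background at 4.52 ± 0.18, while Dntt, which is typical of postnatal B cell formation, ranked 59.

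Of 9 homing and adhesion genes, Cxcr4 and Itga4 were high (22.2%, against 6.3% of all genes). The marrow-retention receptor Cxcr4 averaged 10.27 ± 0.18 and the integrin chain Itga4 10.15 ± 0.31. Itgb1, the beta chain that pairs with Itga4 in VLA-4, read 8.16, 7.98 and 9.49. The gut-homing genes Itgb7 and Ccr9 averaged 4.64 and 4.33 and were not above background. The laminin receptor chain Itga6 averaged 6.23 ± 0.54. Of 9 measured BCL2 family genes 1 was high (11.1%, against 6.3% of all genes), the survival gene Mcl1 at 9.64 ± 0.29. Bcl2l1 averaged 7.62 ± 0.57, the death effector Bak1 read 7.22, 6.80 and 5.18, Bcl2l11 averaged 5.95 and Bid was lowest at 4.75. Bcl2 averaged 5.41 ± 0.18. In glycolysis 3 of 11 genes were high (27.3%), with Hk1 at 10.32 ± 0.62, Pgk1 at 8.75 ± 0.60 and Pkm at 8.31 ± 0.29. Ldha averaged 7.40 ± 0.46, and Pfkl was lowest at 4.80. Pfkp read 7.27, 6.25 and 6.47. Of 14 interferon response genes 0 were high, a list too short to be told from the 6.3% of all genes. The brightest were Ifit2 at 6.43 ± 0.44, Oas1a at 6.22 ± 0.16, Bst2 at 6.20 ± 0.17 and Isg20 at 6.13 ± 0.28, and the lowest was Mx1 at 3.06.

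Genes of the dividing cell were read in each pool. All 20 DNA replication genes were above background, against 47.9% of all genes, and 5 were high (25%, against 6.3%). Their median was 7.88. Pcna, the sliding clamp, read 11.27, 11.32 and 11.18 and ranked 55, and Uhrf1, which keeps DNA methylation through replication, averaged 9.36 ± 0.30. Mcm6 of the replicative helicase averaged 8.79 ± 0.41, Pola1 8.52 ± 0.65 and the licensing factor Cdt1 was lowest at 5.54. Pool 3 was highest for Rrm2 of ribonucleotide reductase (7.58, 7.68 and 8.96) and lowest for the helicase partners Gins2 (8.21, 8.60 and 7.01) and Gins1 (6.92, 6.84 and 5.78). Mitosis genes were dimmer than these, with 1 of 19 high (5.26%, near the 6.3% of all genes). Above background were 14 (73.7%, against 47.9%), and their median of 6.10 compares with 5.45 over all genes. The topoisomerase Top2a read 8.65, 8.59 and 9.70, and the proliferation marker Mki67 8.06, 7.88 and 9.28. The cyclin Ccna2 averaged 6.49 ± 0.62, the motor Kif23 6.48 ± 0.19, and Kif20a was lowest at 4.58. Of the 19 mitosis genes, 7 lay at least 1 higher in pool 3 than in both other pools, among them the motors Cenpe (5.49, 5.50 and 7.78) and Kif11 (5.42, 6.14 and 7.35). Over all genes 1.64% did so. The spindle assembly factor Tpx2 (5.61, 5.59 and 7.09) and the checkpoint kinase Bub1 (4.72, 4.95 and 6.10) were also among these. Cenpf (5.99, 5.62 and 6.92) and Bub1b (5.96, 5.70 and 6.83) were highest in pool 3 by less than 1, and the kinase Aurkb (6.52, 6.05 and 5.51) was lowest there.

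Markers of other marrow cells were looked for in 10 lists, and all but 1 list held no high gene. In that list, of stroma and endothelium, 1 of 12 genes was high (8.33%, against 6.3% of all genes). That gene was Pecam1, an adhesion molecule of endothelium and of leukocytes, at 8.43 ± 0.22, whereas the endothelial gene Cdh5 read 4.66, 4.64 and 4.51 and Lepr of stroma averaged 3.09. Median levels were 5.03 for granulocytes, 5.25 for monocytes and macrophages, 5.36 for erythroid cells and 5.14 for T cells. They were 4.23 for natural killer and innate lymphoid cells, 5.38 for plasmacytoid dendritic cells and 4.25 for mast cells, basophils and eosinophils. Megakaryocytes and platelets had 4.94, stroma and endothelium 4.96, and stem and multipotent progenitor cells 5.44, against 5.45 over all genes. The shares above background were 2 of 18, 5 of 16, 2 of 9, 6 of 13, 2 of 9, 2 of 5, 2 of 10, 1 of 5, 5 of 12 and 4 of 9, in the order named, against 47.9% of all genes. Defining markers not above background included Ly6g (2.77), Csf1r (4.63), Cd3d (3.64), Cd3g (3.43), Ncr1 (3.83), Siglech (5.32) and Pf4 (3.63). The T cell list's brightest genes were Cd247 at 6.73 ± 0.08 and Cd2, which pre-B cells also make, at 7.02, 5.53 and 7.61. Lat and Bcl11b of the same list averaged 6.23 and 5.77. The monocyte and macrophage list was led by Itgam, the CD11b integrin chain, at 7.27 ± 0.40, with Tyrobp at 6.73, the lysozyme gene Lyz2 at 6.54 and Cd68 at 5.97, and Adgre1, the F4/80 gene, was lowest at 3.54. In the erythroid list Car2, a carbonic anhydrase, averaged 6.50, the band 3 gene Slc4a1 5.90, Epor 5.48, Car1 5.44 and Epb42 4.42. Only 9 of the 17 genes of that list were measured, and no globin is among those named here. Of the plasmacytoid and the platelet lists 5 of 8 genes each were measured.

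In the stem and progenitor list Meis1, a factor of these cells, averaged 7.36 ± 0.48. After it came Hoxa7 at 6.09, Hoxa9 at 5.90 and Gata2 at 5.45, with Slamf1 lowest at 4.26. The killer cell genes Prf1, Tbx21, Nkg7 and Klrb1c averaged 5.98, 5.74, 5.11 and 4.57, and Klrd1 3.01. In the plasmacytoid list Cox6a2 averaged 6.34, Pacsin1 5.50, Irf7 5.38 and Clec10a 3.61. Most of these levels lay near the olfactory reference. Siglecf of eosinophils averaged 5.74, Hdc 5.18, Prg2 4.47 and Fcer1a 3.54. The platelet genes Gp9, Itga2b, Gp5 and Ppbp averaged 6.22, 5.36, 4.94 and 3.50. The collagen genes Col1a1, Col1a2 and Col3a1 of stroma averaged 6.40, 5.96 and 5.71. In bulk samples, fewer cells of a type and less RNA per cell cannot be told apart.

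**Figure D3:**
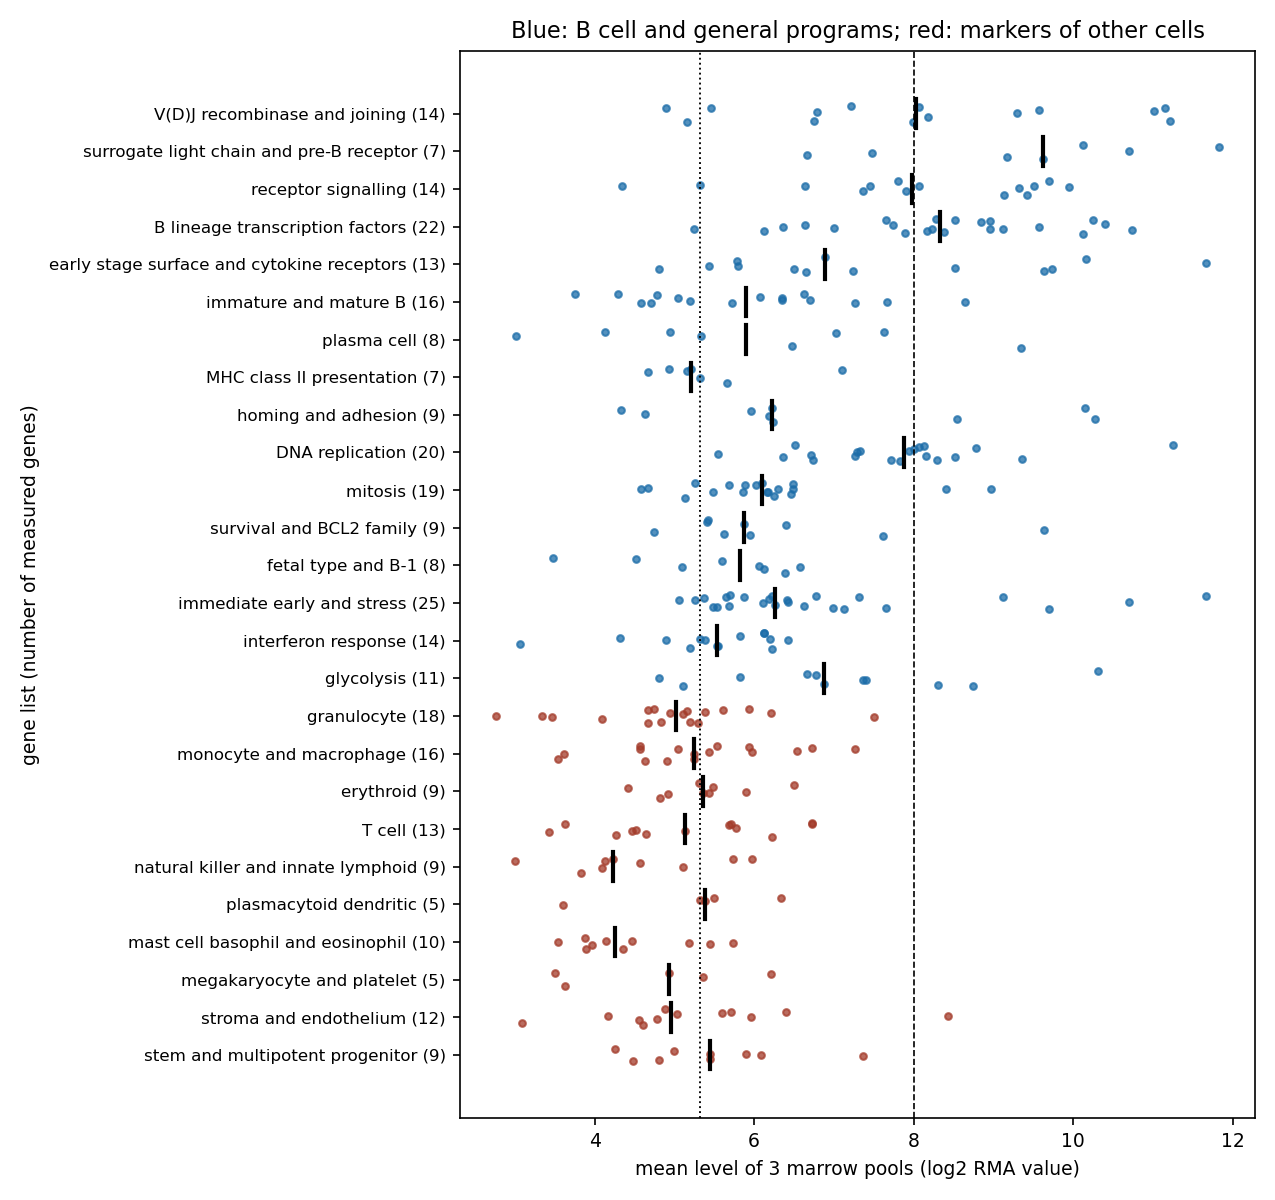
Mean log2 RMA level over 3 marrow pools (horizontal axis) of each measured gene (points) in 16 program lists (blue) and 10 marker lists of other cells (red), with a bar at each list's median. The dashed line is the level 8 and the dotted line the mean 95th percentile of olfactory receptor genes. The pre-B receptor list has the rightmost median, 9.62, and Pecam1 is the red point beyond the dashed line.

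The 3 pools were alike in median and interquartile range and differed in the number of bright genes and gene by gene. Medians over all probe sets were 5.40, 5.42 and 5.34 and interquartile ranges 2.46, 2.46 and 2.41. Genes at 8 or more numbered 1654, 1689 and 1908 in pools 1, 2 and 3. Across genes, which are not independent replicates, pools 1 and 2 correlated at r = 0.980 (Spearman rho 0.977), pools 1 and 3 at 0.957 (0.959) and pools 2 and 3 at 0.960 (0.964). Pools 1 and 2 differed by 1 or more for 263 genes, pools 1 and 3 for 1119, and pools 2 and 3 for 1030. The highest and lowest pool were 1 or more apart for 1616 genes, 8.11% of all, and for 187 of the 1257 high genes. With pool 3 left out and the brightest probe set of each gene chosen again from the remaining pools, this count was 262, and with pool 1 left out it was 1029. That choice differs from the one behind the pairwise counts. The share grew with level, from 1.26% of genes with a mean below 4 to 23.4% of those at 8 to 9, and was 7.5% above 11.

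The widest difference was that of a sex-linked gene. Xist, the RNA that coats the inactive X chromosome of females, read 3.45, 10.05 and 9.91. The Y-linked genes Eif2s3y (7.85, 2.84 and 2.97), Kdm5d (7.53, 3.82 and 4.12) and Uty (7.07, 3.01 and 3.17) had the opposite pattern. Pool 1 thus held transcripts of Eif2s3y, Kdm5d and Uty and an Xist level at the olfactory median. Pools 2 and 3 held Xist, with these Y-linked genes below the olfactory reference. Sex is not stated in the labels, and any comparison of pool 1 with the others carries this difference. Eif2s3x, the X-linked partner of Eif2s3y, read 8.65, 10.07 and 10.57, and Kdm6a, the partner of Uty, 7.498, 8.332 and 8.611, both lowest in pool 1. Kdm5c, also X-linked, was lowest there too (6.98, 7.36 and 7.86). The X-linked gene Ddx3x was lowest in pool 2 instead (10.15, 9.90 and 10.81). Sry read 7.88, 7.86 and 7.98 in all pools alike, and Zfy1 and Usp9y were at 3.15 and 2.99. Sry, Zfy1 and Usp9y thus did not have the pattern of Eif2s3y, Kdm5d and Uty. The genes Snord14e (6.21, 10.05 and 9.12), Snora75 (4.51, 8.30 and 7.81) and Trps1 (5.32, 8.02 and 8.63) were also lowest in pool 1 by more than 2.

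**Figure D4:**
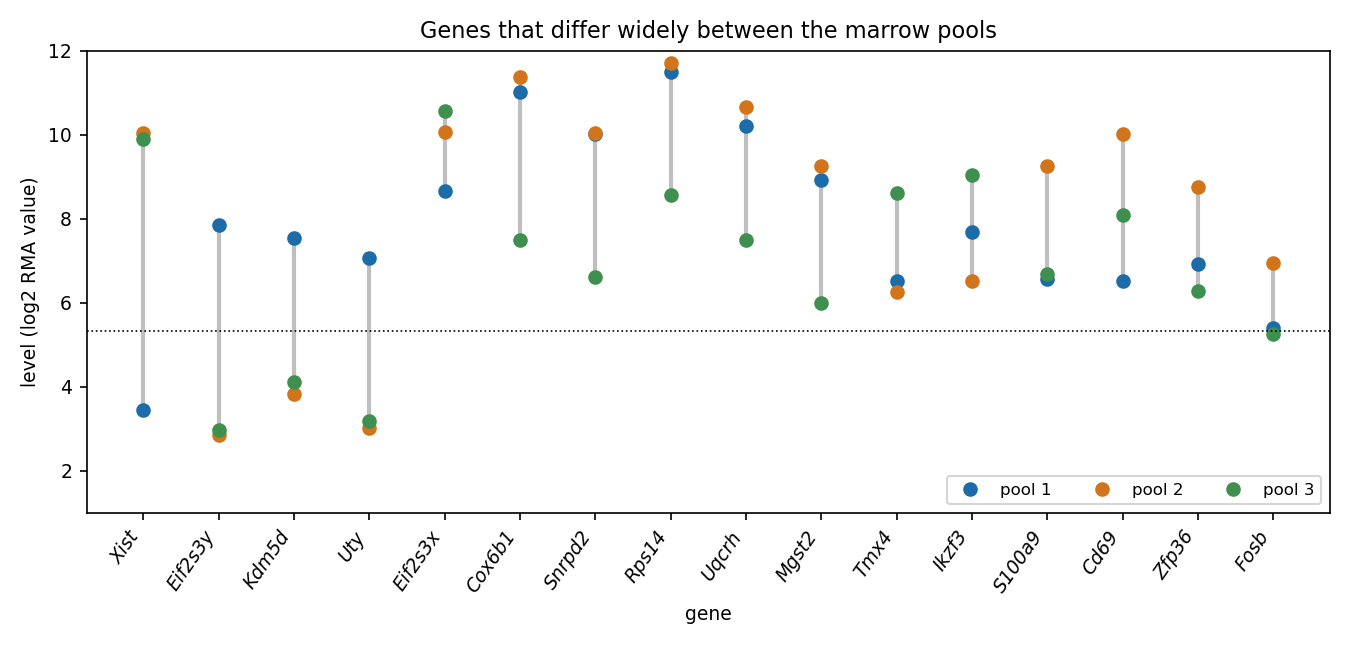
Log2 RMA level (vertical axis) in each marrow pool of genes with wide differences between pools (horizontal axis), joined by a grey line from the lowest to the highest pool. The dotted line is the mean 95th percentile of olfactory receptor genes. Xist and the Y-linked genes shown separate pool 1, Cox6b1 to Tmx4 separate pool 3, and S100a9 to Fosb are highest in pool 2.

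Pool 3 stood apart for most of the genes with a single outlying pool. It lay at least 1 above both others for 326 genes (1.64%) and at least 1 below for 275 (1.38%), against 50 (0.251%) and 56 (0.281%) for pool 1 and 64 (0.321%) and 25 (0.125%) for pool 2. Among 35 genes with a pool at 8 or more and a gap of at least 2, pool 3 was the low one in 29 and the high one in 1, Tmx4 (6.52, 6.26 and 8.61). Cox6b1, a subunit of cytochrome oxidase, read 11.02, 11.37 and 7.49. Snrpd2 of the spliceosome core read 10.01, 10.04 and 6.61, and Rps14 of the small ribosomal subunit 11.49, 11.70 and 8.56. Uqcrh of respiratory complex III read 10.21, 10.66 and 7.49. The same gap was found for Rpl8, Rps2, Cox4i1, Ndufs5, Nedd8, Atp6v1f, Fis1, Psenen, Ssr2 and the actin regulator Pfn1. The rest of the 29 were Sh3bgrl3, Mgst2, Scarna17, Ly6e, Gm10847, Chtf8, Ifitm2, Pqlc3, H2-Ob, Vamp8, 5730408K05Rik, Gpx1, Plac8, Gstp1 and Ppp1r14b. Crip1 (8.92, 10.02 and 7.13), Acyp1 (8.57, 9.60 and 6.75) and Klhl32 (7.005, 5.740 and 8.740) were also among the 20 widest.

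By family, pool 3 was the lowest pool for 65 of 93 respiratory chain and ATP synthase genes, 45 of 71 cytosolic and 45 of 77 mitochondrial ribosomal proteins and 18 of 27 histones. Over all genes it was the lowest for 39.5%. Of the 27 histones 13 were not above background in every pool. The median difference of pool 3 from the mean of the other pools was -0.42, -0.25, -0.26 and -0.41 for these families, against -0.02 over all genes. It was 0.23 for splicing and hnRNP genes and 0.75 for mitosis genes, where pool 3 was highest in 28 of 46 and 12 of 19, against 35.4% of all genes. Among the 1257 high genes the difference was also 0.23, and pool 3 was highest for 59.2%. Splicing and hnRNP genes, at 60.9%, thus did not stand out from high genes in this respect. The signs of these families were the same with arrays centred on their medians, with quantile normalization and with the mean over probe sets. Over all genes the difference turned to 0.05 and 0.02 under the first pair of these. Among B lineage genes, pool 3 was lowest for 15 of 22 transcription factors and 6 of 7 genes of the pre-B receptor list, with medians of -0.35 and -0.29.

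These differences moved with the size of the gene. The 1693 genes with a mean of 8 or more and a known span on the genome in the RefSeq table were split into 5 groups. In the shortest, of 0.062 to 9.15 kb, the median of pool 3 minus the other pools was -0.32, and 61 of 339 genes lay at least 1 below both. In the next group it was 0.17, and in the 3 longer ones 0.38, 0.48 and 0.35, with 2, 6 and 5 genes at least 1 below. The median span was 3.67 kb for cytosolic ribosomal proteins, 7.28 kb for respiratory chain genes and 26.7 kb for mitosis genes. Genes of the pre-B receptor list had a median span of 3.31 kb, and the transcription factors, which also lay lower in pool 3, 84.9 kb. Span here includes introns and is not transcript length. The part of gene size, RNA amount or amplification in the differences of pool 3 was not tested.

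**Figure D5:**
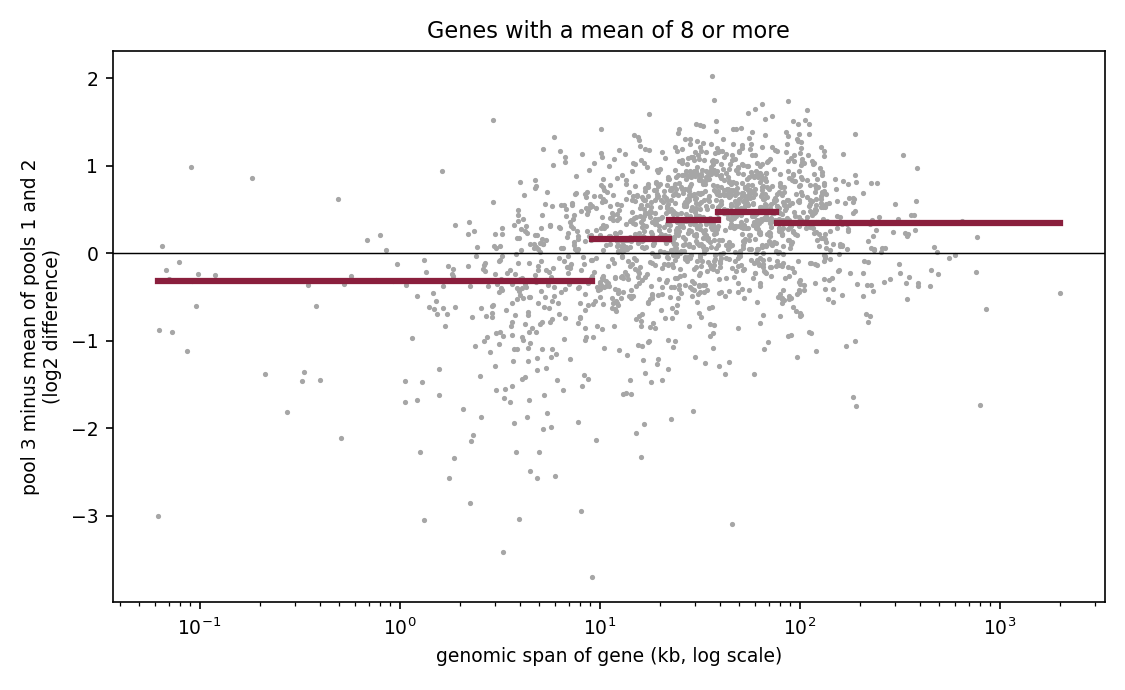
Log2 difference of marrow pool 3 from the mean of pools 1 and 2 (vertical axis) against the genomic span of each gene in kb (horizontal axis, log scale) for 1693 genes with a mean of 8 or more. Thick lines give the median in 5 equal groups by span, from -0.32 for the shortest genes to 0.48 in the fourth group.

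Pool 2 was highest for most members of several lists. Among these were 52 of 71 cytosolic ribosomal proteins and 48 of 93 respiratory chain genes. Histones (17 of 27) and small nucleolar and Cajal body RNAs (30 of 54) were others. Of these, 13 of the 27 and 26 of the 54 were not above background in every pool, so part of that order may be among background values. Over all genes pool 2 was highest for 31.1%. The median differences of these families from the other pools were 0.37, 0.33, 0.43 and 0.49 in the order named. Of 25 immediate early and stress genes, a class induced quickly by many stimuli, pool 2 was highest for 22, against 31.1% of all genes. Their median difference from the other pools was 0.62, and 5 of them lay at least 1 above both others, against 0.321% of all genes. The transcription factor gene Jun read 8.89, 9.96 and 8.53 and Zfp36, whose protein destabilises mRNAs, 6.92, 8.76 and 6.27. Fosb read 5.39, 6.95 and 5.27, Fos 4.885, 6.570 and 5.002 and Dusp1, a phosphatase of MAP kinases, 6.39, 7.59 and 6.34. Egr1 (5.46, 6.45 and 5.18), Klf6 (7.05, 7.69 and 6.63) and Hsph1 (6.90, 8.08 and 7.99) also had a range above 1. The brightest members were the chaperones Hspa8 and Hsp90aa1, at 11.66 and 10.70, with Btg2 at 9.70 and Jun at 9.13, and the lowest was Klf4 at 5.05. Cd69, an activation marker of lymphocytes, read 6.52, 10.01 and 8.08, so all pools differed.

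S100a9, a calcium-binding protein of neutrophils, read 6.56, 9.26 and 6.68, and its partner S100a8 5.27, 7.48 and 4.08. Pool 2 was the highest for 12 of 18 granulocyte markers, against 31.1% of all genes, with a median difference of 0.57. Of the 18, 16 were not above background, so most of that order is among background values. The sum of the markers' values on the linear scale was 638, 1403 and 561 in pools 1, 2 and 3. S100a8 and S100a9 gave 133, 792 and 119 of it, and the other 16 markers 505, 611 and 442. Mpo, of early granulocytes, read 4.84, 5.79 and 5.25, while Ngp read 6.51, 6.40 and 4.89 and did not follow. Cebpe averaged 6.21 ± 0.13, Cxcr2 read 2.92, 3.98 and 3.50, and Ly6g was at 2.84, 2.63 and 2.84. Whether cell composition or handling had a part in these differences was not tested.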

How the data were processed

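Amplified and biotin-labelled RNA of 3 marrow pools was hybridised, 1 array each. The deposited values are log2 levels. Per the submitters' processing notes, the authors summarised them by RMA with Expression Console 1.3.0.187 of Affymetrix. RMA removes background, gives arrays a common distribution and combines probes. Its settings were not stated there. Values were used without further scaling.

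Of 35556 probe sets, 21789 had 1 gene symbol in the platform's gene table, 1621 had several and 12146 were not listed. The 13767 without exactly 1 symbol were not used, although 1359 of them read 8 or more in all 3 pools. Each gene was represented by its brightest probe set in the marrow, 19938 genes in all, of which 999 had several sets. Symbols were kept as the table gives them, and 19856 could be matched by Entrez number to RefSeq genes on GRCm38.p6, from which genomic spans were taken. Of 358 listed genes 319 were measured, and the others were not analysed here.

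Genes were named by rule: the 30 with the highest mean, a fixed set of stage genes (28 measured), the brightest 4, the lowest and the widest-ranging members of each list, the 20 widest ranges and all gaps of 2 or more among genes with a pool at 8 or more. Members and lists were chosen with earlier results of these data known, and any other gene was named with its values in view. Alternatives were other thresholds, 2 further scalings, the mean over probe sets and leaving out each pool. The counting was tested on simulated data. The number of arrays limits the precision. Python 3.11.15, pandas 2.3.3, numpy 2.4.6 and matplotlib 3.10.9 were used.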

Additional observations from a re-analysis of the deposited data

How the results depend on the processing

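The count of 1257 high genes became 2881 at a threshold of 7 and 488 at 9, and ran from 1357 to 1465 when 1 pool was left out. The count of 9543 genes above background became 5837 with the 99th percentile of olfactory receptor genes, and ran from 9735 to 10223 when 1 pool was left out. The count of 1616 genes with a range of 1 or more became 165 for a range of 2 or more and 670 for genes with a pool at 8 or more. It ran from 262 without pool 3 to 1118 without pool 2, and fewer pools give smaller ranges by construction. Both further scalings, the mean over probe sets, the mean of the pools at 8 or more and the requirement that every probe set be high, added after seeing the data, kept the counts they were run on within 1.5 times. Of 28 stage gene means, 28 moved by less than 1 SD under each scaling and each left-out pool, and 27 with the mean over probe sets. Their ranks, as the share of genes below each, moved by more than the SD between pools for 5 of 28 with the mean over probe sets and for 2 of 28 without pool 3. Of 48 ranges of single genes, 8 moved by more than the gene's SD with quantile normalization, and 6, 10 and 32 without pools 1, 2 and 3. Of 26 list medians 3, 4 and 3 moved by more than the SD of the pool medians without pools 1, 2 and 3. No paired analysis was possible because no comparison between groups was made and no result comes from a test. Dim genes are the ones that signal over background limits.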
